A study of Mus musculus with 8 samples.

Results

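The CC chemokines that draw monocytes into tissue, and the receptors that read them, were followed in single cells of the mouse heart after sham operation or ischemia-reperfusion (IR). The 10 genes were taken by symbol from the gene list of the deposited matrices, out of 27998 genes. They comprised 8 ligands (Ccl2, Ccl7, Ccl12, Ccl8, Ccl3, Ccl4, Ccl6 and Ccl9) and 2 receptors (Ccr2 and Ccr1), and all 10 were found. Left ventricles of C57BL/6 male mice aged 10 to 12 weeks were taken 6 h after either 30 min of ligation of the left coronary artery followed by reperfusion, or the same operation without ligation. The tissue was dissociated with enzymes, 3 hearts were combined for each suspension, and cells were captured on the 10x Genomics droplet platform with no sort for a cell type. The labels list 4 samples called 0 h, analysed here as sham, and 4 samples called 6 h, analysed here as IR. The protocol places both operations 6 h before the tissue was taken, so the 0 h of the labels and the sham of the protocol were read as the same group.

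Chemokines are small secreted proteins that leukocytes follow through G-protein-coupled receptors. CCR2 is carried by classical (Ly6C-high) monocytes and binds CCL2, CCL7 and CCL12, and it governs the release of monocytes from bone marrow and their entry into injured myocardium. CCL8, encoded beside them, acts in mice through CCR8 foremost. CCL3, CCL4, CCL6 and CCL9 are products of activated myeloid cells, of which CCL3, CCL6 and CCL9 act through CCR1.

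The ligands lie in 2 groups on chromosome 11 (GRCm38). Ccl2 (82035571 to 82037453), Ccl7 (82045712 to 82047525), Ccl12 (82101845 to 82103400) and Ccl8 (82115185 to 82116799) stand in this order on the plus strand. Ccl9 (83572919 to 83578636, minus strand), Ccl6 (83587882 to 83593087, minus strand), Ccl3 (83647844 to 83649355, minus strand) and Ccl4 (83662584 to 83664683, plus strand) form the other group. Ccr1 (123962124 to 123968692, minus strand) and Ccr2 (124101950 to 124113557, plus strand) lie 133257 bases apart on chromosome 9. Ccl2 overlaps Gm17268 and Ccl6 overlaps E230016K23Rik, each on the opposite strand. RefSeq promoter windows (GRCm38.p6, 250 bases before to 50 bases after the start site) were at hand for 7 of the 10 genes. Ccl2, Ccl7 and Ccl4 had no entry.

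The 250 bases before the start site are printed for 3 ligands: Ccl12 and Ccl8, adjacent ligands that both had lower levels in macrophage/monocyte-like cells of IR, and Ccl9, whose level there was higher. Capitals mark a TATA box (TATAAA) in Ccl12 and Ccl8 and a match to the NF-kB consensus, read on the minus strand of the printed sequence, in Ccl9. The windows are chr11:82101595-82101844 (plus strand), chr11:82114935-82115184 (plus strand) and chr11:83578637-83578886 (minus strand), each written 5′ to 3′ toward its gene.
Ccl12: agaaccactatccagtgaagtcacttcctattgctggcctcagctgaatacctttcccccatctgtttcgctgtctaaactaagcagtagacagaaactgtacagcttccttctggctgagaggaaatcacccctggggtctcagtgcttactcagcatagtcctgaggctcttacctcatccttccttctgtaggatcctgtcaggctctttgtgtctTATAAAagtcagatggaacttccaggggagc
Ccl8: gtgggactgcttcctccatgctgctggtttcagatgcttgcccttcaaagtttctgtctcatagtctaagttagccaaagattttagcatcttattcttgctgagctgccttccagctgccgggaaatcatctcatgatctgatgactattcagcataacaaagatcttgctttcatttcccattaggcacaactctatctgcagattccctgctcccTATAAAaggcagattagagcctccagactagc
Ccl9: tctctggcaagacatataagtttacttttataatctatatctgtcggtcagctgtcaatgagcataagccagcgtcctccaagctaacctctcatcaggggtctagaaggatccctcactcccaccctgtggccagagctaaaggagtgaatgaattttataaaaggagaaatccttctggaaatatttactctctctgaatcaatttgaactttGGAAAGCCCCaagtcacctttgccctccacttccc

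The TATA box began 31 bases before the start of Ccl12 and 32 bases before the start of Ccl8. On both strands of the whole 300-base windows, TATAAA was found in 3 of the 7 genes (Ccl12, Ccl8 and Ccl9), against 14.2% of 27025 RefSeq promoters. The NF-kB consensus was found in Ccl9 and Ccr1, against 8.18% of all promoters. TGANTCA, the letters of an AP-1 site, was found in Ccl9 alone (7.93% of all promoters), where its letters did not overlap the NF-kB match. A match describes the letters of the window only.

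Each condition was deposited as 1 matrix whose barcodes carry no sample, so sham and IR were 1 library each, there was no replicate error, and no test between conditions was made. The sham matrix held 11620 barcodes and 58653308 unique molecular identifiers (UMIs, each counting 1 captured molecule) and the IR matrix 8539 barcodes and 75033226 UMIs. After filters, 10319 and 7696 cells remained, with medians of 4464 and 5942 UMIs, and 30 barcodes occurred in both libraries. Levels are UMIs per 1000000 UMIs of all cells of a class (CPM). A 3′ UMI counts a molecule once whatever its length, so levels can be set side by side between genes. The 95% intervals (exact Poisson for levels, exact conditional for ratios, Clopper-Pearson for shares) cover counting error only, and amplified reads behind the UMIs add errors that they do not hold.

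Clusters were named from cell type markers, none of them a member of the family, and the family was kept out of the clustering. The 9 classes compared were macrophage/monocyte-like (3440 sham and 2002 IR cells), fibroblast-like (3310 and 1563), neutrophil-like (239 and 2291), mural-like (800 and 198), endothelial-like (304 and 126), dendritic-like (109 and 73), NK cell-like (272 and 88), T cell-like (379 and 269) and B cell-like (1136 and 747). Several classes were held by different clusters in the 2 libraries, among them macrophage/monocyte-like, fibroblast-like and neutrophil-like cells, and with 1 library per condition a cluster found mainly in 1 library cannot be told apart from that library. Of macrophage/monocyte-like cells, 52.6% in sham lay in a cluster led by Fxyd2, Cbr2 and C1q genes and 34.4% in a cluster led by Ccl12, Cd72 and Aif1, whereas in IR 50.3% lay in a cluster led by Chil3 and Saa3 and 40.1% in a cluster led by Mrc1 and Cd163. Clustering macrophage, monocyte and dendritic cells alone gave finer subclusters. A subcluster could draw cells from different clusters, and its values are over all of its cells. Those with most sham macrophages held few IR cells. They were MHCII macrophage-like (1275 sham and 10 IR cells), interferon-signature (1134 and 14), resident macrophage-like (331 and 5) and unnamed (161 and 7). Most of the 78 IR cells of the Cbr2/C1q cluster thus lay in other subclusters than most of its 1808 sham cells. B cell-like cells served as the reference for free RNA. That their own UMIs of these genes came from free RNA was assumed and not tested. Their medians were 2129 UMIs in sham and 3333 UMIs in IR. A level close to theirs is read as background. The reference is a CPM, and in a class of deeper cells the same CPM means more UMIs per cell.

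Ccl2, the principal CCR2 ligand, was the member with the highest level in the IR library. Over all kept cells it stood at 693 CPM in sham and 5012 CPM in IR. In sham, its level was highest in macrophage/monocyte-like cells, at 1301 CPM (95% interval 1285 to 1318), followed by dendritic-like cells at 571 CPM (95% interval 522 to 623) and fibroblast-like cells at 489 CPM (95% interval 479 to 499.8). In IR the order was different: fibroblast-like cells stood first at 9476 CPM (95% interval 9436 to 9518), followed by macrophage/monocyte-like cells at 4529 CPM (95% interval 4501 to 4556) and mural-like cells at 1373 CPM (95% interval 1308 to 1440.5). The intervals of these neighbours did not overlap in either library. The B cell-like reference stood at 34.4 CPM in sham and 164 CPM in IR. The place of dendritic-like cells in sham was not firm, since a dendritic-like subcluster of finer clustering had 215 CPM, below fibroblast-like cells. Over the whole dendritic-like class, 9 macrophage markers summed to 3388.5 CPM in sham and 607 CPM in IR, and their part in the result was not tested.

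With the main settings, the difference between conditions was largest in mural-like, fibroblast-like and endothelial-like cells. In fibroblast-like cells Ccl2 was 19.4-fold higher in IR (log2 ratio 4.28, interval 4.24 to 4.31), from 8549 and 205831 UMIs. Mural-like cells, the pericytes and smooth muscle cells around vessels, stood at 64.4 CPM (95% interval 53.8 to 76.5) in sham and were 21.3-fold higher in IR (log2 ratio 4.41, interval 4.16 to 4.68). Endothelial-like cells stood at 35.6 CPM (95% interval 26.9 to 46.3) in sham and 521 CPM (95% interval 478 to 566) in IR (log2 ratio 3.87, interval 3.47 to 4.29). This ratio lay between 2.27 and 7.54 over 7 alternative settings, so its place among the classes was not stable. Macrophage/monocyte-like cells, already high in sham, differed by 3.48-fold (log2 ratio 1.80, interval 1.78 to 1.82). This value compares different clusters, and within clusters Ccl2 went both ways: from 1529.8 to 948 CPM in the Cbr2/C1q cluster (log2 ratio -0.69, interval -0.82 to -0.56) and from 51.3 to 4290.4 CPM in the Chil3/Saa3 cluster (log2 ratio 6.39, interval 5.77 to 7.08), which had 39 sham cells. Most of the 78 IR cells of the Cbr2/C1q cluster lay in other subclusters than most of its sham cells. The Chil3/Saa3 cluster mixed cells that finer clustering separated into classical monocyte-like and recruited macrophage-like cells. The former (37 sham and 325 IR cells) had 54.1 and 444 CPM. The latter (1 and 661 cells) had 6159.5 CPM in IR. The part of this mix in the difference of the whole cluster was not tested. Dendritic-like cells had 571 CPM in sham and 368 CPM (95% interval 333 to 407) in IR (log2 ratio -0.63, interval -0.83 to -0.44), a ratio with no stable direction, since it lay between -1.55 and 1.65 over 7 alternative settings. In neutrophil-like cells Ccl2 went from 38.6 to 207 CPM, in NK cell-like cells from 20.7 to 151 CPM and in T cell-like cells from 13.5 to 147 CPM, all near the B cell-like level of their library.

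The share of cells with a Ccl2 UMI moved the same way. Cells were thinned to 1000 UMIs each for shares of cells, which left out 210 of 9989 sham cells and 201 of 7357 IR cells of the 9 classes. After thinning, 11.8% of sham and 48.5% of IR fibroblast-like cells had a Ccl2 UMI, against 25.0% and 80.5% before thinning. In macrophage/monocyte-like cells the thinned shares were 43.7% and 58.1%, and before thinning 64.4% and 88.2%. B cell-like cells, with a thinned share of 2.42% in sham and 14.7% in IR, set the background.

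**Figure D1:**
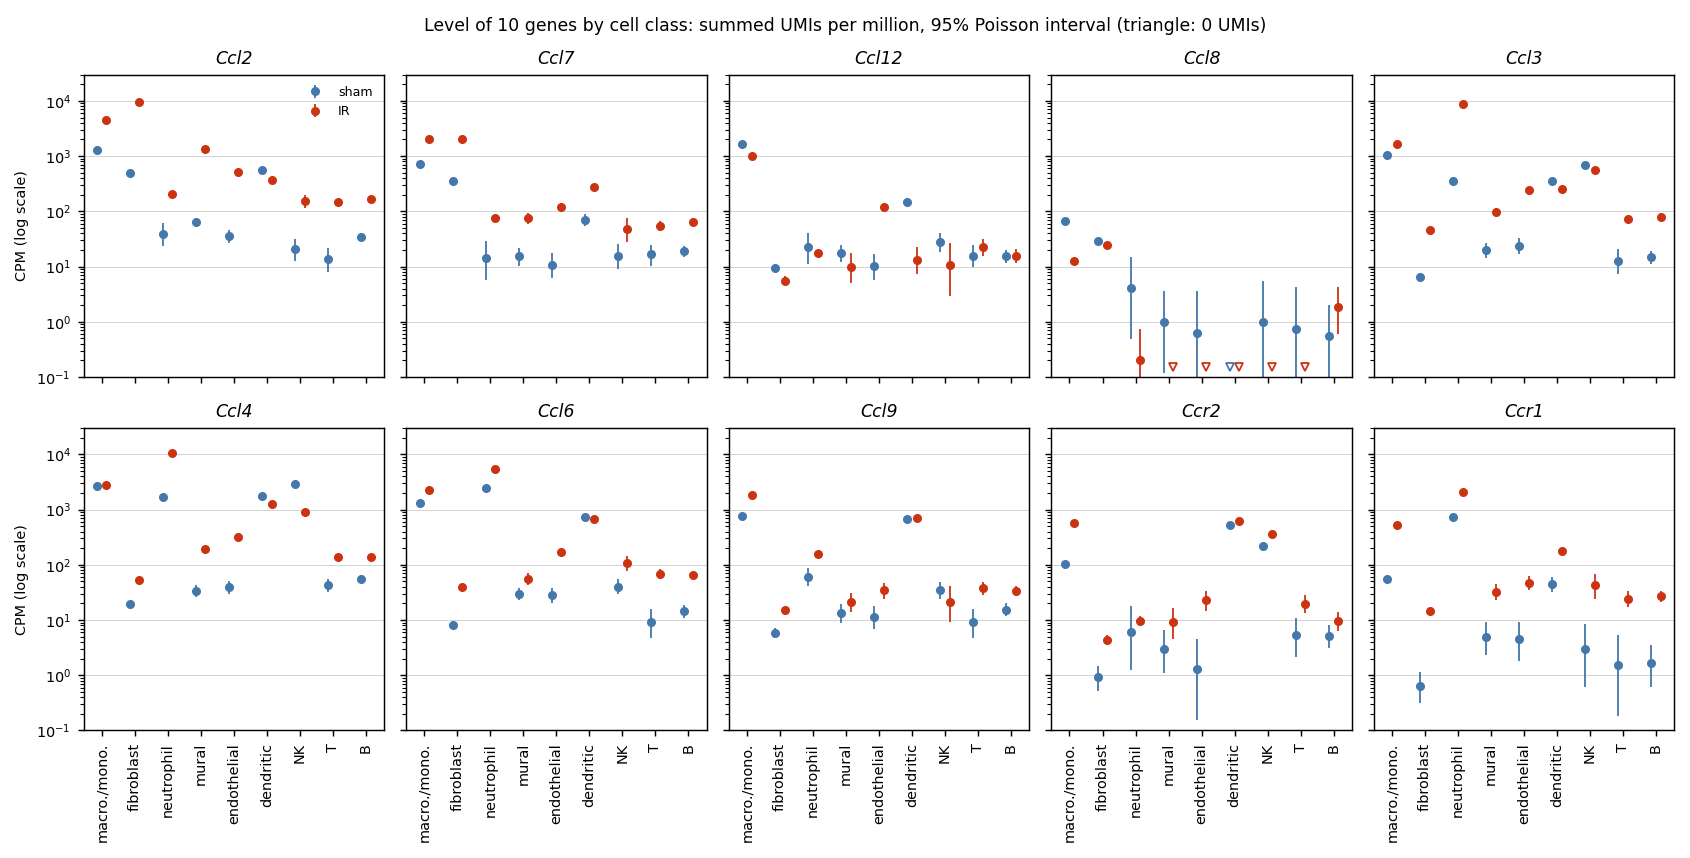
Level of each of the 10 genes in the 9 cell classes of the sham and IR libraries, in CPM on a log axis, with bars for exact 95% Poisson intervals where they are wider than the points. Ccl2 of fibroblast-like cells moved from 489 to 9476 CPM, past macrophage/monocyte-like cells, and Ccl3 of neutrophil-like cells moved from 359 to 8620 CPM.

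The fibroblast-like class was made of 3 clusters. The sham cells lay in a cluster led by Clec3b and Htra3 (3300 sham and 49 IR cells), and the IR cells in a cluster led by Cxcl5, Ptx3 and Timp1 (8 and 969 cells) and a cluster led by Serpina3n and Fmo2 (2 and 545 cells). In IR, Ccl2 stood at 13446 CPM (interval 13387 to 13504) in the Cxcl5/Ptx3 cluster but at 212 CPM (interval 200.3 to 223) in the Serpina3n/Fmo2 cluster, below the sham cluster at 479 CPM (interval 469 to 489.9). The Cxcl5/Ptx3 cluster held 98.9% of the Ccl2 UMIs of IR fibroblast-like cells with 62.0% of the cells. After thinning, 68.8% of its cells had a Ccl2 UMI and 14.3% of those of the Serpina3n/Fmo2 cluster, the latter equal to the B cell-like share within its interval. Within the Clec3b/Htra3 cluster itself, Ccl2 was 5.02-fold higher in the 49 IR cells (log2 ratio 2.33, interval 2.23 to 2.43), at 2407 CPM (interval 2254 to 2567). The 9 macrophage markers summed to 54.0 CPM in the Cxcl5/Ptx3 cluster, against 109 CPM in IR B cell-like cells, with none of the 9 at 0. Cells of the cluster were deeper, with a median of 15778 UMIs over both libraries, against 3333 UMIs in IR B cell-like cells. A lower CPM there need not mean fewer UMIs per cell. Neutrophil markers were also below their B cell-like sum (702 and 1176 CPM). Endothelial (409 and 163 CPM) and mural markers (405 and 27.4 CPM) were above it. The part of these marker lists in the result was not tested.

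Ccl7, the neighbour of Ccl2 and a second CCR2 ligand, was shared between the same cells. Macrophage/monocyte-like cells stood at 709 CPM (95% interval 697 to 721) in sham and 2004 CPM (95% interval 1986 to 2022) in IR (log2 ratio 1.50, interval 1.47 to 1.53). Within clusters it went both ways, from 826 to 192 CPM in the Cbr2/C1q cluster (log2 ratio -2.10, interval -2.40 to -1.82) and from 17.1 to 1420.5 CPM in the Chil3/Saa3 cluster, the latter from 7 sham UMIs (log2 ratio 6.38, interval 5.33 to 7.69). Most of the 78 IR cells of the Cbr2/C1q cluster lay in other subclusters than most of its sham cells. In the classical monocyte-like subcluster Ccl7 was 12.9 CPM in sham and 47.0 CPM in IR, below the IR level of B cell-like cells. The recruited macrophage-like cells, with 1 sham cell, had 2096 CPM in IR. Fibroblast-like cells stood at 352 CPM (95% interval 343 to 361) in sham and 2029 CPM (95% interval 2009.7 to 2048) in IR, 5.76-fold higher (log2 ratio 2.53, interval 2.49 to 2.57). In IR the intervals of the 2 classes overlapped, so neither stood first. Dendritic-like cells followed at 280.4 CPM in IR and 69.7 CPM in sham (log2 ratio 2.01, interval 1.61 to 2.43), a ratio that turned to -0.40 with chemokine genes among those that set the clusters. In the dendritic-like subcluster of finer clustering (66 sham and 69 IR cells) Ccl7 was 18.7 CPM in sham and 25.4 CPM in IR, the latter below B cell-like cells. The other classes lay between 10.8 and 19.0 CPM in sham and between 47.7 and 119 CPM in IR, with B cell-like cells at 64.0 CPM in IR. As with Ccl2, the Cxcl5/Ptx3 cluster carried most of the fibroblast-like UMIs in IR (96.3%), at 2803 CPM (interval 2776 to 2829.9). The Clec3b/Htra3 cluster had 338 CPM in sham and 365 CPM in IR (log2 ratio 0.11, interval -0.14 to 0.35), so the level there differed little between conditions.

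Ccl2 and Ccl7 were found in the same cells more often in IR. Of thinned IR fibroblast-like cells with Ccl7, 79.1% also had Ccl2, against 29.4% in sham. In macrophage/monocyte-like cells the shares were 90.7% in IR and 74.7% in sham. These shares follow the level of Ccl2 as well, which was higher in IR in both classes. The ratio of Ccl2 to Ccl7 UMIs was not the same in all sources: it was 1.39 (interval 1.34 to 1.44) in sham and 4.67 (interval 4.62 to 4.72) in IR fibroblast-like cells, and 1.84 and 2.26 in macrophage/monocyte-like cells. Mural-like cells of IR stood far from both, at 18.4 (interval 14.9 to 23.1). In classes near background, the IR ratio was 2.57 (interval 2.15 to 3.08) in B cell-like, 2.70 in T cell-like and 2.69 in neutrophil-like cells.

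Among mural-like cells, Ccl2 was higher in the cluster led by pericyte genes than in that led by smooth muscle genes. In the mural-like cluster led by Kcnj8 and Rgs5, pericyte genes (572 sham and 118 IR cells), Ccl2 stood at 91.2 CPM (interval 73.8 to 112) in sham and 3314 CPM (interval 3151 to 3484) in IR (log2 ratio 5.18, interval 4.88 to 5.50). In the cluster led by Tagln and Myh11, smooth muscle genes (228 and 80 cells), it stood at 35.8 CPM in sham and 165 CPM in IR, the level of B cell-like cells. The Kcnj8/Rgs5 cluster held 92.6% of the mural-like Ccl2 UMIs in IR. The summed level of the 8 fibroblast markers in it was lower in IR, at 487 CPM, than in sham, at 858 CPM, as was that of the macrophage markers (106 and 245 CPM). The endothelial markers were higher in IR (3169.9 and 1469.5 CPM), as were the neutrophil markers (2857 and 2442 CPM), and their part in the result was not tested. Ccl7 in the same cluster was low, at 17.3 CPM in sham and 157 CPM in IR.

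Ccl12, a mouse CCR2 ligand of the same chromosome group as Ccl7, came almost wholly from macrophage/monocyte-like cells. The level over that whole class was lower in IR. The class stood at 1646 CPM (95% interval 1628 to 1665) in sham and 1011 CPM (95% interval 998 to 1024) in IR (log2 ratio -0.70, interval -0.73 to -0.68), and it held 98.2% of all Ccl12 UMIs in sham and 96.4% in IR. The class was made of different clusters in the 2 libraries: Ccl12 was lower in IR within the Cbr2/C1q cluster, 948 and 237 CPM (interval of the log2 ratio -2.27 to -1.74). Most of the 78 IR cells of that cluster lay in other subclusters than most of its sham cells. The Chil3/Saa3 cluster had 34.2 and 205 CPM. The classical monocyte-like subcluster had 33.5 CPM in sham and 19.1 CPM in IR, and the recruited macrophage-like subcluster 295 CPM in IR. Injury macrophage-like cells (19 sham and 862 IR cells) had 2172 CPM in IR, from 19887 UMIs. Of the large sham subclusters, MHCII macrophage-like cells had 1117 CPM, resident macrophage-like cells 529 CPM and interferon-signature cells 3219.5 CPM. Dendritic-like cells had 147 CPM (95% interval 123 to 175) in sham, from 129 UMIs, and 13.4 CPM (95% interval 7.33 to 22.5) in IR, from 14 UMIs (log2 ratio -3.46, interval -4.37 to -2.66). The 9 macrophage markers summed to 3388.5 CPM in sham and 607 CPM in IR dendritic-like cells, none of them at 0, and their part in the result was not tested. With classes set from each cell's own markers the ratio of Ccl12 was 0.28. The IR value was that of B cell-like cells (15.7 CPM). Endothelial-like cells went the other way, with 10.2 CPM (95% interval 5.82 to 16.5) in sham and 119 CPM (95% interval 98.7 to 141) in IR (log2 ratio 3.54, interval 2.79 to 4.39), from 16 and 124 UMIs. With no doublet removal this ratio was 0.30, short of 2-fold. The 9 macrophage markers summed to 514 CPM in sham and 226 CPM in IR endothelial-like cells, and none was at 0. In the remaining classes Ccl12 lay at 9.56 to 27.6 CPM in sham and 5.57 to 22.2 CPM in IR, around the B cell-like reference.

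Ccl8, a ligand of CCR8 in mice encoded next to the CCR2 ligands, was the least abundant ligand. It was detected well above the reference in 2 classes. Macrophage/monocyte-like cells had 67.5 CPM (95% interval 63.8 to 71.4) in sham and 12.7 CPM (95% interval 11.3 to 14.2) in IR, 5.33-fold lower (log2 ratio -2.41, interval -2.60 to -2.23). Fibroblast-like cells had 28.8 CPM (95% interval 26.4 to 31.5) in sham and 24.7 CPM (95% interval 22.7 to 26.9) in IR (log2 ratio -0.22, interval -0.40 to -0.04). The class with the higher Ccl8 was therefore macrophage/monocyte-like in sham and fibroblast-like in IR. Unlike Ccl2, Ccl8 was alike in the 2 large IR fibroblast-like clusters, at 26.0 CPM in the Cxcl5/Ptx3 cluster and 22.9 CPM in the Serpina3n/Fmo2 cluster. Within the Clec3b/Htra3 cluster it was lower in IR, at 26.1 CPM in sham and 2.6 CPM in the 49 IR cells. The IR value came from 1 UMI (log2 ratio -3.33, interval -8.63 to -0.84). In the other classes Ccl8 had 0 to 5 UMIs in each library, too few for a ratio.

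Read as sources, the ligands of the Ccl2 to Ccl8 group split in IR. Of all Ccl2 UMIs, macrophage/monocyte-like cells held 71.5% in sham and 32.8% in IR, and fibroblast-like cells 25.5% and 64.6%. For Ccl7 the macrophage/monocyte-like shares were 66.8% and 49.9% and the fibroblast-like shares 31.5% and 47.6%. For Ccl8 they were 70.7% and 34.6%, and 28.7% and 63.6%. Thus the fibroblast-like share was above the macrophage/monocyte-like share for Ccl2 and Ccl8 in IR, and Ccl12 was the CCR2 ligand that stayed with macrophage/monocyte-like cells. Shares depend on the cells captured as well as on the level per cell. Fibroblast-like cells were fewer in IR and deeper, with medians of 5128.5 UMIs in sham and 13315 UMIs in IR. Summed over the 8 ligands, macrophage/monocyte-like cells held 85.7% of UMIs in sham and 41.8% in IR (24.5% with at most 2500 genes per cell), fibroblast-like cells 7.81% and 28.7%, and neutrophil-like cells 1.11% and 27.6%. The class with the highest level was macrophage/monocyte-like for 6 of the 8 ligands in sham and for 2 in IR (Ccl12 and Ccl9), and for 2 and 1 with classes set from each cell's own markers. The study's 4 samples per condition were not separable, so the spread of these shares between hearts is not known.

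**Figure D2:**
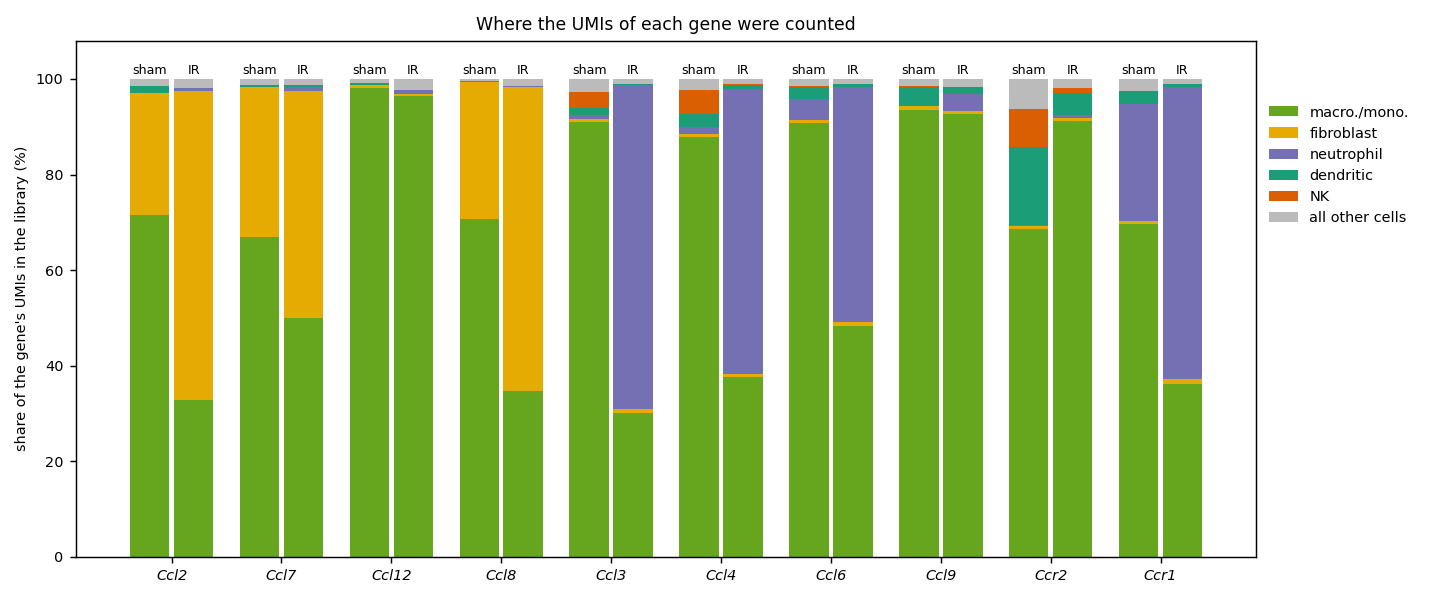
Share of the UMIs of each gene held by each cell class, in percent of all kept cells, for the sham and IR libraries. The fibroblast-like share of Ccl2 UMIs went from 25.5% to 64.6%, and the neutrophil-like share of Ccl3 UMIs from 0.835% to 67.7%.

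Ccl3, a ligand of CCR1, and the adjacent Ccl4 were foremost products of neutrophil-like cells in IR. Neutrophil-like cells had a Ccl3 level of 359 CPM (95% interval 308 to 416) in sham, from 177 UMIs, and 8619.7 CPM (95% interval 8562 to 8678) in IR, from 85065 UMIs, a 24.0-fold difference (log2 ratio 4.58, interval 4.37 to 4.81). Their Ccl4 stood at 1658 CPM (95% interval 1546 to 1776) in sham and 10388 CPM (95% interval 10325 to 10452) in IR, a 6.26-fold difference (log2 ratio 2.65, interval 2.55 to 2.75). Both genes were thus higher in IR, and Ccl3 by more, so that the ratio of Ccl4 to Ccl3 UMIs went from 4.62 to 1.21. Macrophage/monocyte-like cells were the first class for Ccl3 in sham, at 1049.6 CPM (95% interval 1035 to 1064), and had 1646 CPM (95% interval 1629.7 to 1663) in IR (log2 ratio 0.65, interval 0.62 to 0.67). Their Ccl4 over the whole class was 2725 CPM (95% interval 2702 to 2749) and 2804 CPM (95% interval 2783 to 2826) (log2 ratio 0.04, interval 0.02 to 0.06), but the class was made of different clusters, and Ccl4 was higher in IR within the Cbr2/C1q cluster (log2 ratio 0.81, interval 0.75 to 0.88) and the Chil3/Saa3 cluster (log2 ratio 2.31, interval 2.11 to 2.51). Ccl3 was higher there too, with log2 ratios of 1.10 and 2.26. The Cbr2/C1q ratios compare cells of mostly different subclusters. In the classical monocyte-like subcluster Ccl4 was 551 CPM in sham and 2252 CPM in IR. A cluster led by Ly6i, Ly6c2 and Ear2 was made mostly of different subclusters in the 2 libraries. The unnamed Ly6c2/Ly6i subcluster (352 sham and 23 IR cells) had Ccl4 at 223 CPM in sham. The nonclassical monocyte-like subcluster (7 and 81 cells) had 1655 CPM in IR, against 237 and 2509 CPM over the whole cluster.

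The neutrophil-like class also changed in makeup. It held a cluster led by Retnlg and Ngp (65 sham and 942 IR cells), a cluster led by Cxcl3 and Upp1 (2 and 1291 cells), a small IR cluster led by Il1rn and Il23a (52 cells) and a sham cluster led by interferon-response genes such as Slfn4 and Rsad2 (172 sham and 6 IR cells). The Retnlg/Ngp cluster had enough cells of both libraries, and within it Ccl3 stood at 294 CPM (interval 223 to 379) in sham and 2459 CPM (interval 2406 to 2514) in IR (log2 ratio 3.07, interval 2.70 to 3.46), and Ccl4 at 1049.7 and 2741 CPM (log2 ratio 1.38, interval 1.19 to 1.59). Both were therefore higher in IR within 1 cluster, by less than over the whole class. The Cxcl3/Upp1 cluster had 11613 CPM (interval 11522 to 11704) of Ccl3 and 14226 CPM (interval 14125 to 14327) of Ccl4, and the Il1rn/Il23a cluster 12079.5 CPM of Ccl3. The sham cluster led by interferon-response genes had a low median depth of 1491 UMIs, and it lost its name under 3 alternative settings, which left 60 to 71 sham neutrophil-like cells.

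In shares of thinned cells, 17.0% of sham and 75.1% of IR neutrophil-like cells had a Ccl3 UMI, and 29.1% and 60.7% a Ccl4 UMI. The B cell-like shares were 1.61% and 8.67% for Ccl3, and for Ccl4 they were 4.56% and 11.6%. Before thinning, the neutrophil-like shares for Ccl3 were 21.8% and 85.4%, and the B cell-like shares 4.49% and 23.7%. The neutrophil-like share was above the B cell-like share in both libraries. Of those with Ccl3 in IR, 68.9% also had Ccl4. As a source, the class held 0.835% of all Ccl3 UMIs in sham and 67.7% in IR, and 1.43% and 59.6% of Ccl4.

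NK cells release CCL3 and CCL4 on activation. NK cell-like cells differed in the opposite direction for Ccl4. They had the highest Ccl4 level of all classes in sham, at 2892 CPM (95% interval 2788 to 2998), and 901 CPM (95% interval 808 to 1002) in IR (log2 ratio -1.68, interval -1.85 to -1.52). The share of thinned cells with Ccl4 was 65.0% in sham and 39.5% in IR. Their Ccl3 stood at 699.8 CPM (95% interval 649 to 753) in sham and 567 CPM (95% interval 494 to 648) in IR (log2 ratio -0.30, interval -0.53 to -0.08). Ccl4 was thus lower in NK cell-like cells of IR by more than 2-fold, whereas the ratio of Ccl3 lay between -0.49 and 0.45 over the alternatives. Over the same cells the summed macrophage markers were 597 CPM in sham and 98.0 CPM in IR, with 3 of 9 (Adgre1, Mrc1 and Mertk) at 0 in IR, and the summed neutrophil markers were 1105 and 5225 CPM, and their part in the result was not tested. Dendritic-like cells had Ccl4 of 1736 CPM in sham and 1276 CPM in IR and Ccl3 of 357 and 257 CPM. Neither ratio held its direction, lying between -3.78 and 0.41 for Ccl4 and between -1.67 and 1.67 for Ccl3 over 7 alternative settings. In fibroblast-like, mural-like, endothelial-like and T cell-like cells, Ccl3 lay at 6.47 to 23.5 CPM in sham and 46.0 to 240.2 CPM in IR, and Ccl4 at 19.7 to 42.9 and 53.6 to 322 CPM. The upper end in IR was that of endothelial-like cells, 2.99-fold (Ccl3) and 2.29-fold (Ccl4) above B cell-like cells, and their neutrophil markers summed to 834 CPM in sham and 2795 CPM in IR.

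Ccl6 and Ccl9, CCR1 ligands of myeloid cells found in rodents, differed in the class with the highest average level. Ccl6 was highest in neutrophil-like cells in both libraries, at 2472 CPM (95% interval 2335 to 2615) in sham and 5332 CPM (95% interval 5287 to 5378) in IR (log2 ratio 1.11, interval 1.03 to 1.19). Macrophage/monocyte-like cells had 1319.7 CPM (95% interval 1303 to 1336) in sham and 2242 CPM (95% interval 2223 to 2262) in IR (log2 ratio 0.76, interval 0.74 to 0.79). Ccl6 was already widespread among sham neutrophil-like cells: 77.0% of thinned cells had a UMI in sham and 83.1% in IR. Neutrophil-like cells were more numerous in IR and held 4.56% of Ccl6 UMIs in sham and 49.2% in IR, and macrophage/monocyte-like cells 90.8% and 48.3%. Within the Retnlg/Ngp neutrophil-like cluster the difference was smaller, 2119 CPM in sham and 3084 CPM in IR (log2 ratio 0.54, interval 0.40 to 0.68). Dendritic-like cells had 745 and 667 CPM, and all other classes stayed at or below 170.3 CPM, the IR value of endothelial-like cells.

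Ccl9, by contrast, was highest in macrophage/monocyte-like and dendritic-like cells. Macrophage/monocyte-like cells had 773 CPM (95% interval 760.5 to 786) in sham and 1811 CPM (95% interval 1794 to 1828) in IR, 2.34-fold higher, and held 93.6% and 92.7% of its UMIs. Within the Cbr2/C1q cluster (log2 ratio -0.06, interval -0.19 to 0.07) and the Ly6c2/Ear2 cluster (log2 ratio -0.11, interval -0.30 to 0.09) the intervals held 0, and the Chil3/Saa3 cluster was higher in IR (log2 ratio 1.32, interval 1.15 to 1.50). The classical monocyte-like subcluster had 678 CPM in sham and 900.2 CPM in IR, short of 2-fold. The recruited macrophage-like subcluster, with 1 sham cell, had 2086 CPM in IR. The Cbr2/C1q and Ly6c2/Ear2 clusters were each of mostly different subclusters in the 2 libraries. Dendritic-like cells had 670.4 CPM (95% interval 617 to 727) in sham and 696 CPM (95% interval 646 to 748) in IR (log2 ratio 0.05, interval -0.11 to 0.21), nearly the same level. Neutrophil-like cells came next in IR, at 155 CPM (95% interval 147 to 162), with 60.9 CPM (95% interval 41.1 to 86.9) in sham (log2 ratio 1.34, interval 0.82 to 1.92). The remaining classes had 5.84 to 34.5 CPM in sham and at most 37.3 CPM in IR, with B cell-like cells at 15.4 and 33.3 CPM.

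Ccr2, the receptor for CCL2, CCL7 and CCL12, was highest in sham in dendritic-like cells, at 526 CPM (95% interval 479.5 to 577), followed by NK cell-like cells at 217 CPM (95% interval 189 to 247) and macrophage/monocyte-like cells at 105 CPM (95% interval 100.1 to 109.5). In IR dendritic-like cells had 629.8 CPM (95% interval 583 to 679.8), macrophage/monocyte-like cells 565 CPM (95% interval 555 to 574) and NK cell-like cells 363 CPM (95% interval 305 to 429). The macrophage/monocyte-like level was 5.39-fold higher in IR (log2 ratio 2.43, interval 2.36 to 2.50), while dendritic-like cells (log2 ratio 0.26, interval 0.08 to 0.43) and NK cell-like cells (log2 ratio 0.74, interval 0.42 to 1.06) differed by less than 2-fold. Over the alternatives the dendritic-like ratio reached 1.78 and the NK cell-like ratio 1.11. Fibroblast-like, neutrophil-like, mural-like, endothelial-like, T cell-like and B cell-like cells stayed at or below 23.0 CPM, so the cells with the highest Ccl2 in IR had next to no Ccr2. Of all Ccr2 UMIs, macrophage/monocyte-like cells held 68.7% (interval 66.9% to 70.4%) in sham and 91.1% (interval 90.7% to 91.6%) in IR, and dendritic-like cells 16.4% and 4.61%.

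The higher Ccr2 of IR macrophage/monocyte-like cells came with a different mix of clusters. A cluster led by Chil3 and Saa3, which scored as classical monocytes (39 sham and 1006 IR cells), had the highest Ccr2, at 691 CPM (interval 613 to 776) in sham and 932 CPM (interval 916 to 949) in IR (log2 ratio 0.43, interval 0.26 to 0.61). A cluster led by Ly6i, Ly6c2 and Ear2 (349 and 97 cells) had 348 CPM (interval 325 to 371) and 421 CPM (interval 376 to 469) (log2 ratio 0.27, interval 0.09 to 0.46). Within each of these clusters the difference was below 2-fold, but both mixed subclusters. The Ly6c2/Ear2 cells were mostly of the unnamed Ly6c2/Ly6i subcluster in sham and of the nonclassical monocyte-like one in IR. In the classical monocyte-like subcluster (37 sham and 325 IR cells), Ccr2 was 683 CPM in sham and 1484 CPM in IR, past 2-fold. Over the whole Chil3/Saa3 cluster the 11 neutrophil markers summed to 8038 CPM in sham and 1816 CPM in IR, and their part in the result was not tested. In the macrophage-like Cbr2/C1q cluster (1808 and 78 cells) the difference was past 2-fold: Ccr2 was low in sham, 38.4 CPM, and 198 CPM in the few IR cells (log2 ratio 2.37, interval 2.03 to 2.69). This cluster too was of mostly different subclusters in the 2 libraries.

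Ccr1, the receptor for CCL3, CCL6 and CCL9, had its highest levels in neutrophil-like and macrophage/monocyte-like cells. Neutrophil-like cells were highest in both libraries, at 737 CPM (95% interval 663 to 817) in sham and 2073 CPM (95% interval 2045 to 2102) in IR (log2 ratio 1.49, interval 1.34 to 1.65). Macrophage/monocyte-like cells had 56.2 CPM (95% interval 52.8 to 59.7) in sham and 525 CPM (95% interval 516 to 535) in IR, 9.34-fold higher (log2 ratio 3.22, interval 3.13 to 3.32). Dendritic-like cells had 44.5 CPM (95% interval 31.7 to 60.9) and 174 CPM (95% interval 149.8 to 201) (log2 ratio 1.97, interval 1.46 to 2.51), the sham interval overlapping that of macrophage/monocyte-like cells. All other classes had at most 46.9 CPM, with B cell-like cells at 1.65 CPM in sham and 26.7 CPM in IR. Ccr1 was higher in IR within 3 clusters as well: log2 ratio 2.28, interval 1.92 to 2.66 in the Chil3/Saa3 cluster, log2 ratio 1.24, interval 0.89 to 1.58 in the Cbr2/C1q cluster and log2 ratio 1.68, interval 1.40 to 1.97 in the Retnlg/Ngp neutrophil-like cluster. The Cbr2/C1q cluster was of mostly different subclusters in the 2 libraries. In the classical monocyte-like subcluster Ccr1 was 157 CPM in sham and 698 CPM in IR. In the unnamed Ly6c2/Ly6i subcluster Ccr1 was 67.6 CPM in sham, and in the nonclassical monocyte-like subcluster 84.7 CPM in IR. The whole Ly6c2/Ear2 cluster had 65.8 and 281 CPM. Of all Ccr1 UMIs, neutrophil-like cells held 24.4% (interval 22.3% to 26.7%) in sham and 61.2% (interval 60.7% to 61.7%) in IR. The sham share was 5.83% to 7.33% under the 3 settings in which the Slfn4/Rsad2 cluster lost its name.

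After thinning, 5.85% of sham and 30.8% of IR macrophage/monocyte-like cells had a Ccr2 UMI, and 52.6% and 80.1% of neutrophil-like cells a Ccr1 UMI. Before thinning, these shares were 14.1% and 58.2% for Ccr2 and 69.5% and 94.8% for Ccr1. B cell-like cells had 0.179% and 1.68% for Ccr2 after thinning. For Ccr1 they had 0 of 1118 cells in sham, which at a floor of 3 counts allows a share of up to 0.268%, and 2.24% in IR. The receptors were found together in more IR cells: 271 of 616 IR macrophage/monocyte-like cells with Ccr2 also had Ccr1, against 15 of 200 in sham. These counts follow the level of Ccr1 as well, since among cells without Ccr2 the share with Ccr1 went from 5.16% to 27.0%.

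Clustering the macrophage, monocyte and dendritic cells alone separated the ligand sources within the class. Resident macrophage-like cells of sham, named from Lyve1, Folr2 and related genes (331 cells), had the highest Ccl6 of the sham subclusters at 4757 CPM (interval 4662 to 4854), with Ccl9 at 2075 CPM, Ccl8 at 122 CPM and Ccr2 at 10.9 CPM (interval 6.85 to 16.5). MHCII macrophage-like cells of sham (1275 cells) had Ccl2 at 1591 CPM (interval 1559 to 1623) and Ccl12 at 1117 CPM. Sham cells with an interferon signature (1134 cells) had the highest Ccl12, 3219.5 CPM (interval 3174 to 3266), and Ccl8, 142 CPM (interval 133 to 152). Ccr2 stood at 56.5 and 86.7 CPM in the last 2, so the sham subclusters with the most CCR2 ligand had little of the receptor.

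In IR, Ccl2 was high in 2 subclusters that differed in Ccl12 and in the receptors. Injury macrophage-like cells (862 cells, named from Lpl, Gdf15 and related genes) had Ccl2 at 5352 CPM (interval 5305 to 5400.1), Ccl7 at 3039.8 CPM (interval 3004 to 3076), Ccl12 at 2172 CPM (interval 2142 to 2203) and Ccr2 at 83.4 CPM (interval 77.6 to 89.6). Recruited macrophage-like cells (661 cells, named from Thbs1 and related genes and led by Spp1, Dmkn and Cxcl3) had Ccl2 at 6159.5 CPM (interval 6106 to 6213) and Ccl7 at 2096 CPM. Their Ccl12 stood at 295 CPM (interval 283 to 307), Ccr2 at 668 CPM (interval 651 to 686) and Ccr1 at 797 CPM. Classical monocyte-like cells (37 sham and 325 IR cells) had the highest Ccr2, 683 CPM (interval 603 to 770.3) in sham and 1484 CPM (interval 1447 to 1522) in IR, with Ccl12 at 19.1 CPM in IR and little Ccl2, 54.1 CPM in sham and 444 CPM in IR. Thinned to 1000 UMIs, 75.3% of IR classical monocyte-like cells and 0.302% of sham resident macrophage-like cells had a Ccr2 UMI, and the free-RNA reference was 1.68% and 0.179%. An unnamed sham subcluster led by Ly6c2 and Ly6i (352 cells) had Ccr2 at 354 CPM (interval 332 to 377) and Ccl2 at 63.5 CPM, and nonclassical monocyte-like cells of IR (81 cells) had Ccl3 at 1269.5 CPM and Ccr2 at 429 CPM.

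**Figure D3:**
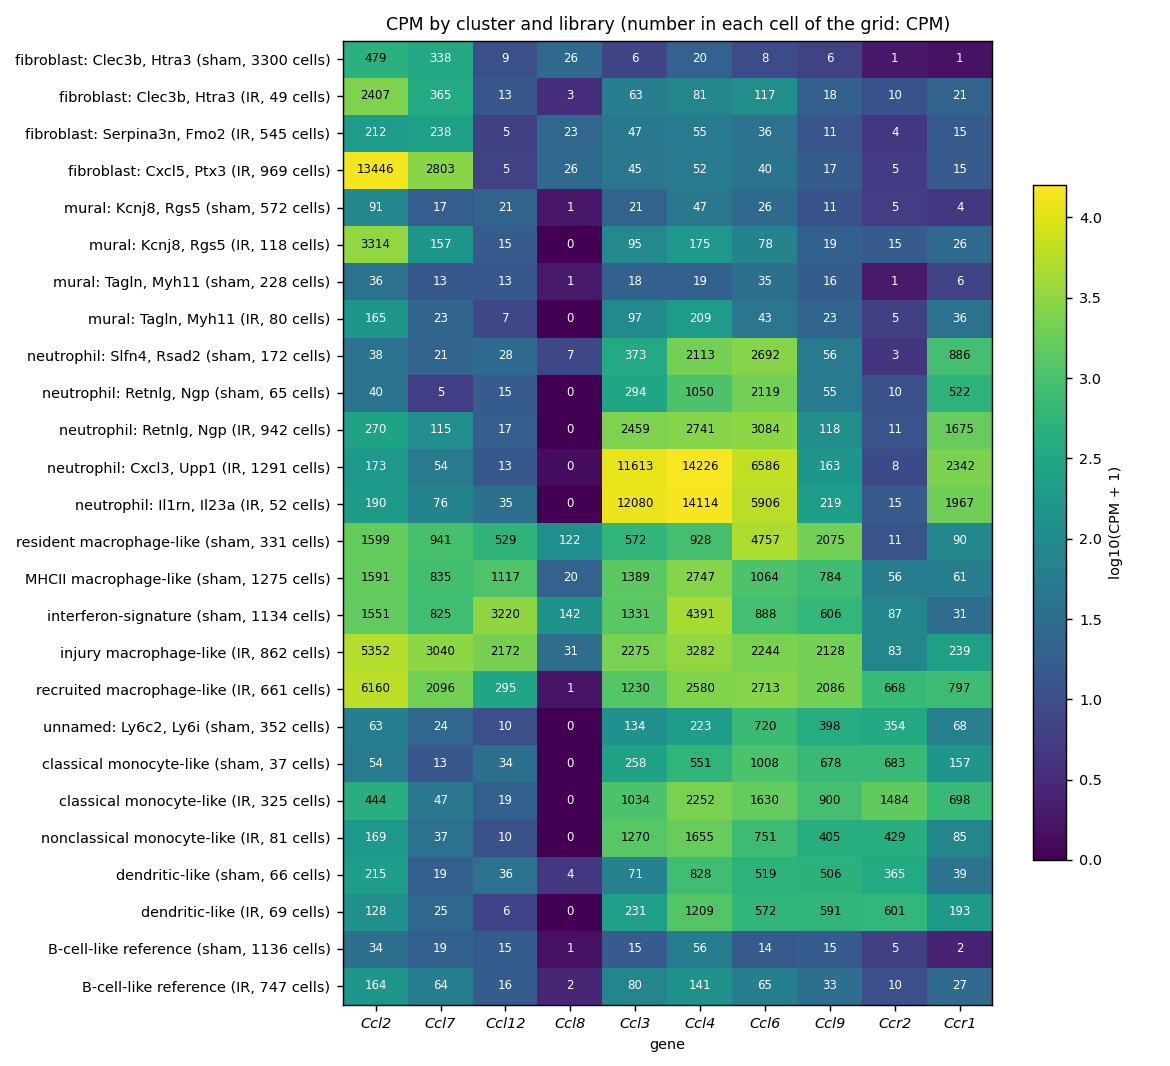
Level of each member (columns) in the clusters and subclusters of each library (rows, with their cell numbers), printed as CPM and coloured by log10(CPM + 1), with the B cell-like reference in the last rows. In IR, Ccl2 stood at 13446 CPM in the fibroblast-like cluster led by Cxcl5 and Ptx3 and at 212 CPM in the fibroblast-like cluster led by Serpina3n and Fmo2.

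Counted over the 8 ligands and with at least 20 UMIs in the 2 libraries together and a ratio of 2 or more as the measure, the shares of all genes past the same ratio give the background. In macrophage/monocyte-like cells 3 of 8 ligands were at least 2-fold higher (Ccl2, Ccl7 and Ccl9) against 9.14% of all genes (2 with at most 2500 genes per cell, where Ccl9 was at a log2 ratio of 0.95), and 1 was at least 2-fold lower (Ccl8) against 13.2%. In fibroblast-like cells 6 of 8 were higher against 11.6% of all genes and none lower against 15.7%, but in IR the class was above the B cell-like level for Ccl2, Ccl7 and Ccl8 alone. With no doublet removal 3 were higher and 1 lower, and with the B cell-like level subtracted 2 were higher. The calls for Ccl3, Ccl4, Ccl6 and Ccl9 in fibroblast-like cells were made on CPM levels below that reference. Per cell, the deeper IR fibroblast-like cells had more UMIs than IR B cell-like cells. The values were 0.639 and 0.295 for Ccl3, 0.745 and 0.517 for Ccl4, 0.559 and 0.237 for Ccl6, and 0.209 and 0.122 for Ccl9. Whether these 4 calls reflect background was not tested. In neutrophil-like cells 6 of 7 ligands tested were higher against 11.4% and none lower against 18.2% (1 with the B cell-like level subtracted), the exception being Ccl12. Of these, Ccl2 and Ccl7 lay near the B cell-like level.

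In mural-like cells 4 of 7 were higher against 7.34% and none lower against 8.73% (1 with no doublet removal), and in endothelial-like cells 7 of 7 were higher against 8.12% (5 with at most 2500 genes per cell and 5 with no doublet removal) and none lower against 7.97%. Dendritic-like cells had 1 of 7 higher (Ccl7) against 9.33% and 1 lower (Ccl12) against 8.16%. Neither call held under all alternatives, the log2 ratio reaching -0.40 for Ccl7 and 0.28 for Ccl12. In the dendritic-like subcluster Ccl7 was 18.7 CPM in sham and 25.4 CPM in IR, short of 2-fold. NK cell-like cells had 3 higher against 12.9% and 2 lower (Ccl4 and Ccl12) against 8.66%. T cell-like cells had 6 of 7 higher against 6.97% and none lower against 3.63%. The B cell-like reference itself had 6 of 7 higher against 4.94% and none lower against 4.44%, which is the scale against which the counts of low-level classes stand. The median log2 ratio of the ligands was 0.71 in macrophage/monocyte-like, 1.87 in fibroblast-like and 2.43 in neutrophil-like cells, against -0.08, -0.07 and -0.11 over all genes tested, and 1.75 against 0.05 in B cell-like cells. The receptors were at least 2-fold higher in macrophage/monocyte-like cells in 2 of 2 cases (9.14% of all genes) and in neutrophil-like cells in 1 of 2, Ccr1 (11.4% of all genes).

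**Figure D4:**
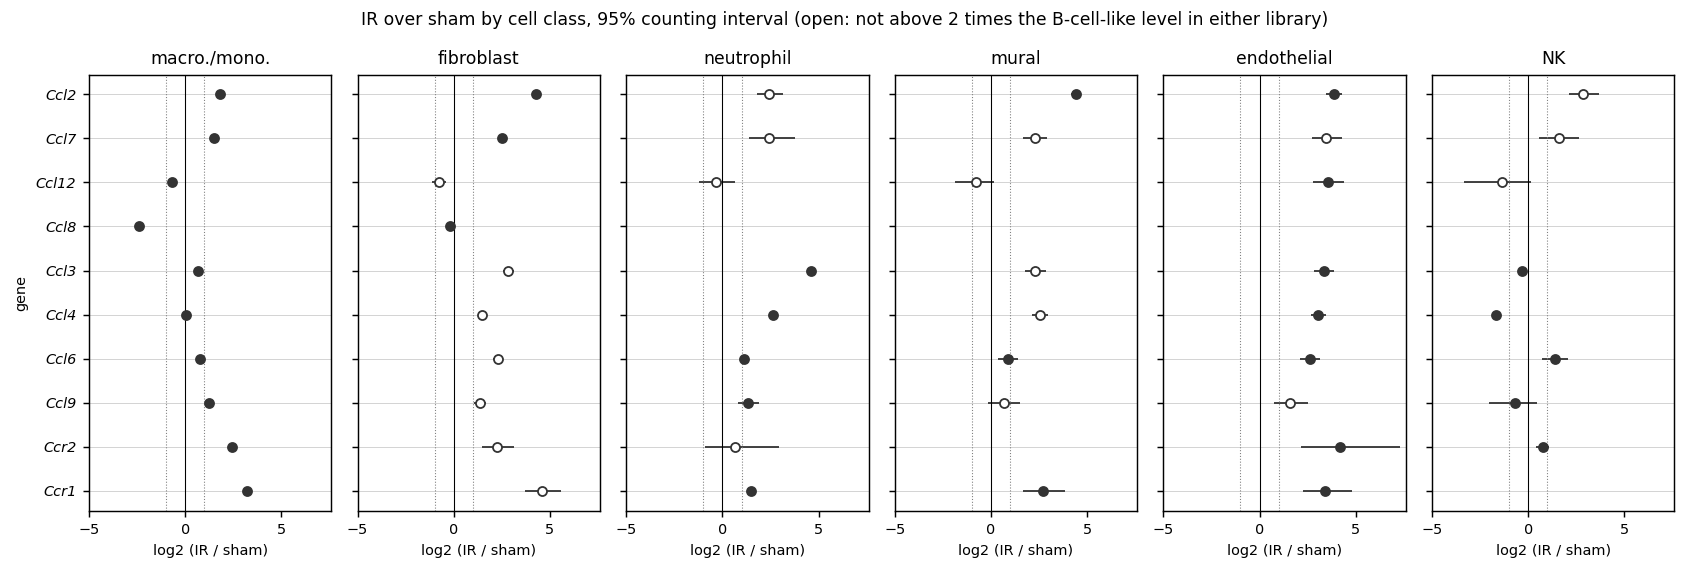
log2 ratio of the IR level to the sham level of each member in each class, with exact 95% intervals for counting error; open points lie in classes that did not pass 2 times the B cell-like level in either library. Ccl2 lay at 4.28 in fibroblast-like and 4.41 in mural-like cells, Ccl3 at 4.58 in neutrophil-like cells, Ccl8 at -2.41 in macrophage/monocyte-like cells and Ccl4 at -1.68 in NK cell-like cells.

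The genes most like each member were sought among 3885 genes over the 18 class sums of the 2 libraries (Pearson r of log2(CPM + 10)), as a description, since the 18 sums share libraries and depth. Ccl2 was most like Ccl7 (r = 0.92), then Mt1, a metallothionein (0.89), and Il6 (0.86). Ccl3 was most like Ccl4 (0.97), then Itgam (0.93). These pairs were also the neighbours on the chromosome. Ccl12 was most like C3ar1 (0.96) and Cd163 (0.95), Ccl8 like Ang and Igf1 (0.87 each), Ccl6 like Ptafr and Fcgr3 (0.98 each) and Ccl9 like Cd68 (0.96). Ccr1 was most like Nlrp3 (0.99), an inflammasome sensor of myeloid cells, and Clec4e (0.98).

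Of the 14 other CC and CX3C ligands, 8 could be tested in macrophage/monocyte-like cells (3 at least 2-fold higher and 1 lower, against 9.14% and 13.2% of all genes) and 8 in fibroblast-like cells (1 higher and 5 lower, against 11.6% and 15.7%). Ccl5, a CCR1 ligand, was a gene of NK cell-like cells in both libraries, at 13558 CPM in sham and 16137 CPM in IR. Ccl17, a CCR4 ligand, stood at 28.6 CPM in sham and 2398 CPM in IR dendritic-like cells. Of the 13 other receptors, 5 could be tested in macrophage/monocyte-like cells (2 higher and 1 lower, against the same shares of all genes in that class). Cx3cr1, the fractalkine receptor of patrolling monocytes and resident macrophages, had 210.5 and 87.0 CPM there, and Ccrl2, an atypical receptor, 208 and 595 CPM. Ccr2 and Cx3cr1 thus differed in opposite directions in the class. Ccrl2 was highest in neutrophil-like cells (954 and 2528 CPM), and Ccr7, a lymph node homing receptor, in B cell-like cells (739 and 803 CPM). The chemokine-scavenging receptors Ackr1 and Ackr2 stayed low in fibroblast-like cells, with Ackr1 going from 3.38 to 5.48 CPM and Ackr2 from 9.56 to 21.1 CPM.

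Ccl2, Ccl7, Ccl3 and Ccl4 also belong to the genes that enzymatic dissociation can induce, so 14 immediate-early and dissociation genes were counted beside them. Over all genes tested, the shares at least 2-fold higher and lower were 11.6% and 15.7% in fibroblast-like, 9.14% and 13.2% in macrophage/monocyte-like and 11.4% and 18.2% in neutrophil-like cells. In fibroblast-like cells 1 of 14 was at least 2-fold higher in IR (Hspa1a) and 9 were lower, their summed level going from 22989 to 11021 CPM, with Fos at 4205 and 1255 CPM and Atf3 at 402 and 138 CPM. Ccl2 and Ccl7 moved the opposite way in this class. In macrophage/monocyte-like cells 3 were higher and 2 lower (summed 22640 and 20912 CPM), and in neutrophil-like cells 3 were higher and 3 lower (13893 and 20792 CPM). Of 8 genes of NF-kB input and feedback, 5 were higher in macrophage/monocyte-like cells (summed 4733 and 12477 CPM, with Il1b at 1574 and 6257 CPM), 4 in fibroblast-like cells (900.2 and 1617 CPM) and 6 in neutrophil-like cells (14562 and 29748 CPM), and none was at least 2-fold lower in these 3 classes. The part of dissociation in the chemokine levels was not tested.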

How the data were processed

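Single-cell suspensions of left ventricle were sequenced as 10x Genomics 3′ libraries. The authors aligned reads to mm10 with Cell Ranger (3.1.0 in the matrix headers) and deposited raw UMI counts, 1 matrix per condition, each pooling 4 listed samples with no map from cells to samples. Barcodes with at least 200 genes and at most 30% mitochondrial UMIs were kept. The study's upper limit of 2500 genes was used only as an alternative, since it removed 13.8% of sham and 39.6% of IR barcodes. Doublets were the barcodes most like simulated pairs, at 0.8% per 1000 barcodes (1058 and 564 removed). Counts were scaled to 10000 per cell and logged, UMIs per cell were regressed out, and 2000 variable genes, without 37 chemokine family genes, gave 30 components, 30 neighbours and Leiden clusters at resolution 0.8. Clusters were named from marker lists by a score of at least 0.5 and, for clusters but not subclusters, a lead of at least 0.6 over the next class of another lineage, thresholds set after the clusters were seen. Counts were summed per class and library, as CPM. A zero count was replaced by a floor of 3 UMIs where a ratio was needed. Genes with at least 20 UMIs in both libraries together were compared, and 2-fold was the measure of a difference, with no test.

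The 10 members were named in every class, other family genes by a fixed list with values for the 4 highest and for a fixed few (Ccl5, Cx3cr1, Ackr1 and Ackr2; 1 other is not reported here), and up to 3 most alike genes per member among genes reaching 100.0 CPM. Members and lists were chosen with earlier results of these data known. The steps were tested on simulated data, and 7 alternatives were tried. Names and positions came from the GRCm38 annotation and promoters from RefSeq. Python 3.11.15, numpy 2.4.6, scipy 1.17.1, pandas 2.3.3, scikit-learn 1.9.0, igraph 0.11.9, leidenalg 0.10.2 and matplotlib 3.10.9 were used.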

Additional observations from a re-analysis of the deposited data

Results flagged for a closer look

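Ccl12 in dendritic-like cells was 129 UMIs in sham and 14 UMIs in IR, a log2 ratio of -3.46, whereas in endothelial-like cells the ratio was 3.54, and the difference between the classes was not tested. The 9 macrophage markers in dendritic-like cells summed to 3388.5 CPM in sham and 607 CPM in IR, and their part in the result was not tested. The dendritic-like ratio was 0.28 with classes from each cell's own markers, and the endothelial-like ratio was 0.30 with no doublet removal. Ccl12 in NK cell-like cells, from 28 and 4 UMIs, had a log2 ratio of -1.38 (interval -3.35 to 0.13), also opposite to endothelial-like cells, and this difference was not tested. Ccl4 in NK cell-like cells had a log2 ratio of -1.68, from 2892 CPM in sham to 901 CPM in IR, whereas in neutrophil-like cells it was 2.65, and the difference was not tested. Ccl4 was also at least 2-fold higher in 5 more classes, but 1 of them was the B cell-like reference and in fibroblast-like, T cell-like and mural-like cells the IR level was 0.38, 0.99 and 1.39 times that reference.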

How the results depend on the processing

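No paired analysis was possible because the barcodes carry no sample, and no replicate could be left out. Of the ratios of members in classes that were past 2-fold, those that stayed past it in the same direction were 46 of 50 with at most 2500 genes per cell, 45 of 58 with no doublet removal, 55 of 58 with a mitochondrial limit of 10%, 56 of 58 with classes from each cell's own markers, 57 of 58 at resolution 1.2, 53 of 57 with chemokine genes among the variable genes and 29 of 30 with the B cell-like level subtracted. Ccl2 lay between 3.89 and 5.02 in fibroblast-like cells, Ccl3 between 4.56 and 5.31 in neutrophil-like cells, Ccr2 between 2.17 and 2.48 in macrophage/monocyte-like cells and Ccl4 between -1.90 and -1.39 in NK cell-like cells (log2). The direction turned for Ccl9 in fibroblast-like cells (-0.41 with no doublet removal), Ccl12 in dendritic-like cells (0.28 with each cell's own markers), Ccr2 in T cell-like cells (-0.62 with each cell's own markers and -0.029 with chemokine genes among the variable genes) and Ccl7 in dendritic-like cells (-0.40 with chemokine genes among the variable genes). In dendritic-like cells Ccl2 ran from -1.55 to 1.65, Ccl3 from -1.67 to 1.67 and Ccl4 from -3.78 to 0.41. In endothelial-like cells Ccl2 ran from 2.27 to 7.54 and Ccl12 from 0.30 to 5.75. The cause was not tested.

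The number of ligands higher in fibroblast-like cells was 6, and 3 with no doublet removal and 2 with the B cell-like level subtracted, which removes levels below it by construction. Ligands lower in IR numbered 1 in fibroblast-like and 1 in mural-like cells with no doublet removal, 1 in mural-like and 1 in neutrophil-like cells after subtraction, and 2 in macrophage/monocyte-like cells with each cell's own markers. With each cell's own markers, 2 ligands in sham and 1 in IR were highest in macrophage/monocyte-like cells, against 6 and 2. The share of the 8 ligands in macrophage/monocyte-like cells was 85.7% in sham and 41.8% in IR, that of Ccr2 68.7% and 91.1%, and that of Ccr1 in neutrophil-like cells 24.4% and 61.2%. In this order of measures they were 88.4%, 70.5% and 30.0% in sham and 24.5%, 86.1% and 89.8% in IR with at most 2500 genes, 80.4%, 72.4% and 5.83% and 40.3%, 86.5% and 58.6% with no doublet removal, 86.9%, 74.3% and 7.33% and 42.4%, 92.1% and 60.4% with the limit of 10%, and 63.1%, 65.0% and 22.1% and 33.4%, 83.8% and 56.9% with each cell's own markers. At resolution 1.2 the sham shares were 86.6%, 74.1% and 7.20% and the IR share of Ccr1 60.5%. With chemokine genes among the variable genes the first 2 sham shares were 86.7% and 73.5%. After subtraction the ligand share was 87.1% in sham, and in IR Ccr2 was 92.8% and Ccr1 63.1%. Ccl8 outside macrophage/monocyte-like and fibroblast-like cells could not be compared at this depth.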

Other observations

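Other genes of the family, chosen here after their values were seen, differed between the libraries. Ccl22, which like Ccl17 acts through CCR4, stood at 7.99 CPM in sham and 353 CPM in IR dendritic-like cells (log2 ratio 5.47, interval 4.41 to 6.79). Ccl21a, a CCR7 ligand of lymphatic vessels, stood at 335 CPM in sham and 156 CPM in IR endothelial-like cells (log2 ratio -1.10, interval -1.37 to -0.85). Ccl24, a CCR3 ligand, was found in macrophage/monocyte-like cells at 119 CPM in sham and 182 CPM in IR (log2 ratio 0.61, interval 0.53 to 0.68). Dendritic-like cells had Ccrl2 at 262 CPM in sham and 68.9 CPM in IR (log2 ratio -1.92, interval -2.33 to -1.54), the opposite direction to macrophage/monocyte-like cells. These intervals cover counting error only, and several members had no stable direction in dendritic-like cells over the alternatives. The 9 macrophage markers in that class summed to 3388.5 CPM in sham and 607 CPM in IR, and their part was not tested.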
